A study of Homo sapiens with 18 samples.

Results

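TXNIP, IRS2, CDKN1B, SESN1, CCNG2, BCL6, CITED2 and GADD45A are 8 genes described as responsive to FOXO transcription factors. The genes were chosen with earlier results of these data known. Each was assigned a window of hg19 positions around the gene, and every region of the deposited table that overlapped a window was taken, without use of its values. This gave 8 of the 12123 regions in the table. They fell in the windows of 7 genes, with 2 regions in SESN1 and 1 in each of TXNIP, IRS2, CDKN1B, CCNG2, CITED2 and GADD45A. The BCL6 window held 0 regions and is not described further. The regions were measured by ChIP-seq of RNA polymerase II (Pol II) carrying phosphate on serine 5 (Ser5) of the repeats in its C-terminal domain, a form found mostly near transcription start sites.

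The cells were Rh30, an alveolar rhabdomyosarcoma line with the fusion transcription factor PAX3-FOXO1, here carrying an FKBP tag through which the small molecule dTAG47 directs the protein to degradation. The 3 groups were 500 nM dTAG47 for 2 h, 500 nM dTAG47 for 4 h, and DMSO, the solvent, with 2 libraries each, called A and B. The labels give no time for DMSO, and the same DMSO libraries serve both times. All 3 groups carried the tagged fusion, and the labels do not say whether the cells came from 1 clone. Nor do they say whether A and B were grown as separate cultures, and the spread behind each p-value may therefore be technical. The 12 samples of the series made with other Pol II antibodies were not analysed here, and the identity of the cells was not checked against muscle markers, since no gene annotation of hg19 was used here.

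FOXO proteins are forkhead transcription factors that stand at the end of the insulin and PI3K-AKT pathway. Active AKT phosphorylates them and keeps them out of the nucleus, and when the pathway is quiet they enter the nucleus and switch on genes of cell cycle arrest, stress defence and insulin sensing. PAX3-FOXO1 joins the DNA-binding domains of PAX3 to the transactivation domain of FOXO1 and lacks part of the forkhead domain. The comparisons asked whether Ser5 Pol II at genes of the normal FOXO programme differed from DMSO 2 h and 4 h after dTAG47 was added.

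Promoter sequences were taken from RefSeq in build GRCh38.p14, in which 7 of the 8 genes had 13 entries. GADD45A had no entry in the set used, and 2 of the entries belong to BCL6. The 250 bases before each annotated start were searched on both strands for GTAAACA, the forkhead element, CAAAACA, the core of the insulin response element, CACGTG, an E-box, and TATAAA. The sequences below, all 5′ to 3′, are those of the 2 genes whose signal rose, of IRS2, the insulin-signalling member, and of the first and second SESN1 starts, since that gene had 2 regions. Capitals mark a match to any of the first 3 motifs.
TXNIP, chr1:145996580-145996829, minus strand: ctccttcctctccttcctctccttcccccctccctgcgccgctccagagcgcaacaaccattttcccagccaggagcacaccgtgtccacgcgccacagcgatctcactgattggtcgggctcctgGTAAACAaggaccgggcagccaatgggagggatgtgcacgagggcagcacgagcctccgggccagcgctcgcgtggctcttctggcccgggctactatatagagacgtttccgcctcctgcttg
CITED2, chr6:139374649-139374898, minus strand: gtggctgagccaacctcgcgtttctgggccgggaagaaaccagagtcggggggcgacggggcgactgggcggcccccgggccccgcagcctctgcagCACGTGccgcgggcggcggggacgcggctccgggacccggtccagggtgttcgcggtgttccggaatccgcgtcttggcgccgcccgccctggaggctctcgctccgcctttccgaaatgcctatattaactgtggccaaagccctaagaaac
IRS2, chr13:109786584-109786833, minus strand: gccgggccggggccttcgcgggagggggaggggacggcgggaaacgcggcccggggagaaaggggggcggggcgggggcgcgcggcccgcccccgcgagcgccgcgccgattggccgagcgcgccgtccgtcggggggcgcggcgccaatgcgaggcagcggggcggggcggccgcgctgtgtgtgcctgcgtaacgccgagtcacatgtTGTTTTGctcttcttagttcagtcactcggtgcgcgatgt
SESN1, first start, chr6:109094847-109095096, minus strand: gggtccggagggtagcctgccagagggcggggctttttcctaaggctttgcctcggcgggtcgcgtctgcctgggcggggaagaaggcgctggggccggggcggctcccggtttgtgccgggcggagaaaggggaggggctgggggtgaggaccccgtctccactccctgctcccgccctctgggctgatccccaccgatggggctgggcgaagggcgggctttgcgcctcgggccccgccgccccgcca
SESN1, second start, chr6:109009553-109009802, minus strand: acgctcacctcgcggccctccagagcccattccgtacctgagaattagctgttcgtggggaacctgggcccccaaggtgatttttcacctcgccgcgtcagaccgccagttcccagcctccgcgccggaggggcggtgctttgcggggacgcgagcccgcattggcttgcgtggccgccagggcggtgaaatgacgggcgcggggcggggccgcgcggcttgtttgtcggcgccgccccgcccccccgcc

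The first TXNIP start held GTAAACA, beginning 124 bases before it, and this was the only match to the forkhead element among the 13 entries. Of all 35116 promoters in the RefSeq table, 2.98% held it. IRS2 held CAAAACA on the opposite strand, beginning 40 bases before the start, against 4.3% of all promoters. The E-box stood in the first CITED2 promoter and in the CCNG2 promoter, and in 6.34% of all promoters. TATAAA was in 0 of the 13 entries and in 10.7% of all. These matches describe letters only. Coordinates of the promoters are in GRCh38 and those of the regions in hg19, and they were not converted.

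Each region in the table spans 400 bases between its start and end, so levels do not differ between genes through region length. Other differences between positions, such as copy number, were not corrected for, and the order of levels below is a description only. Levels are given as CPM, counts scaled to a common effective library size with TMM factors. Of the 8 regions, 7 lay within 1507 bases of an end of their gene's window. Total counts per library were 962251 to 1792013, and the 3 regions with the highest counts took 1.77% to 4.17% of them, least in DMSO library A and most in 4 h library B. In DMSO the highest of the 8 was GADD45A, followed by the higher-coordinate SESN1 region, CITED2 and CCNG2, and then by CDKN1B, IRS2, the lower-coordinate SESN1 region and TXNIP. The libraries of GADD45A lay above those of the others. Those of the higher-coordinate SESN1 region and CITED2 overlapped, as did those of CITED2 and CCNG2, and among the 3 lowest regions IRS2 overlapped the lower-coordinate SESN1 region and that region overlapped TXNIP. Over the 6 libraries, 97.98% of all regions were below GADD45A, 95.36% below CITED2, 51.3% below TXNIP and 23.9% below the lower-coordinate SESN1 region.

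**Figure D1:**
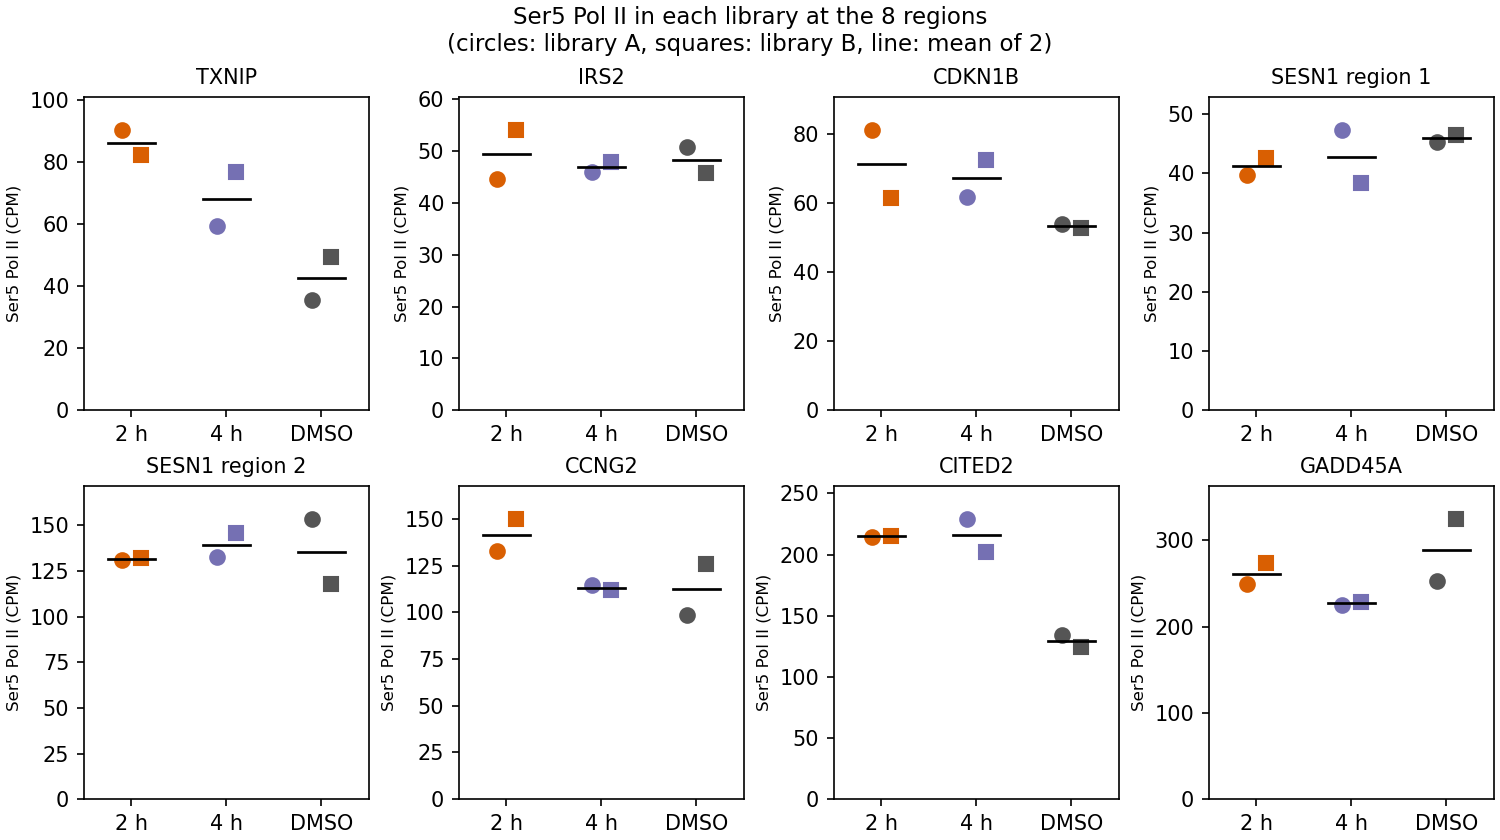
Ser5 Pol II (CPM, TMM-scaled, axes from 0) at the 8 regions for 2 h, 4 h and DMSO, with circles for library A, squares for library B and a line for the mean of 2. TXNIP, CITED2 and CDKN1B are higher in all 4 dTAG47 libraries than in either DMSO library, though CDKN1B did not pass the test. In IRS2 and the higher-coordinate SESN1 region (region 2) the libraries of each time overlap those of DMSO.

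CITED2 rose at both times and so did TXNIP, though the TXNIP call at 4 h sat at the threshold (edgeR adjusted p = 0.0498). That call was lost in some of the alternatives. The other 6 regions passed the test at neither time, though GADD45A did at 4 h in 2 of the alternatives. In the reported fit 2 of the 8 regions rose at each time, where 2.22% of all regions rose at 2 h and 1.52% at 4 h. The 8 genes were chosen with earlier results of these data known, so these counts are a description only. TXNIP encodes an arrestin-family protein that binds thioredoxin and restrains glucose uptake. Its region lies at chr1:145438323-145438723 and had 129 and 108 reads at 2 h, 94 and 72 reads at 4 h, and 66 and 72 reads in DMSO. In CPM these were 90.1 and 82.1 at 2 h, 59.2 and 76.7 at 4 h, and 35.6 and 49.3 in DMSO. Each dTAG47 library lay above both DMSO libraries, and both 2 h libraries lay above both 4 h libraries.

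The TXNIP mean was 86.1 ± 5.64 CPM at 2 h, against 42.5 ± 9.64 CPM in DMSO (SD, n = 2 each), a 2.06-fold rise (log2 fold change 1.04, SE 0.18, edgeR quasi-likelihood test with Benjamini-Hochberg adjustment over all regions, adjusted p = 0.000105). Of all regions, 0.289% had a larger log2 fold change at 2 h. Among the alternatives, omitting the filter only repeated the reported fit, since the filter removed 0 regions. The call held in each of the 16 alternatives that gave an adjusted p, with log2 fold changes from 0.81 to 1.28, and DESeq2 gave none.

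At 4 h the TXNIP mean was 68.0 ± 12.4 CPM, against 42.5 ± 9.64 CPM in DMSO (SD, n = 2 each), a 1.58-fold rise (log2 fold change 0.66, SE 0.19, edgeR adjusted p = 0.0498). DESeq2 gave no adjusted p for it (log2 fold change 0.68, DESeq2 unadjusted p = 0.0164). The edgeR call at 4 h sat at the threshold. It was lost with total count scaling (0.61, adjusted p = 0.0936), cyclic loess with limma-trend (0.67, 0.0685), a minimum mean of 50 counts (0.65, 0.0696), a robust dispersion (0.66, 0.0509), without DMSO library A (0.43, 0.491) and without 4 h library B (0.51, 0.396). It was also lost in a fit that took the share of reads in the 3 top regions as a covariate (0.41, adjusted p = 0.445). The share was 2.61% in 2 h library A, 4 h library A and DMSO library B, where TXNIP had 90.1, 59.2 and 49.3 CPM in that order, and the part of the share in the 4 h value was not tested beyond this fit. Over the 16 alternatives with an adjusted p, it ranged from 0.00534 to 0.491.

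CITED2 encodes a transcriptional co-regulator that binds CBP and p300 and limits the hypoxia response. Its region, at chr6:139695506-139695906, had 307 and 283 reads at 2 h, 363 and 190 at 4 h, and 249 and 182 in DMSO. Scaled to depth, these were 214 and 215 CPM at 2 h, 229 and 202 CPM at 4 h, and 134 and 125 CPM in DMSO. The dTAG47 libraries did not overlap those of DMSO at either time, and the 4 h libraries stood on either side of the 2 h libraries.

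CITED2 averaged 215 ± 0.534 CPM at 2 h, against 129 ± 7.0 CPM in DMSO (SD, n = 2 each), a 1.65-fold rise (log2 fold change 0.73, SE 0.15, edgeR adjusted p = 0.00134). At 4 h it averaged 216 ± 18.6 CPM, against the same DMSO value, a 1.67-fold rise (log2 fold change 0.74, SE 0.15, edgeR adjusted p = 0.00155). Of all regions, 1.11% had a larger log2 fold change at 2 h and 0.99% at 4 h. Among the 17 alternatives, omitting the filter only repeated the reported fit. The call held in 17 of 17 alternatives at each time, with log2 fold changes from 0.61 to 0.80 at 2 h and from 0.64 to 0.86 at 4 h. Whether more cells carried Ser5 Pol II at these regions or each cell carried more cannot be told apart in bulk cultures, and a shift shared by the whole table is removed by the scaling.

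The cell cycle inhibitors CDKN1B and CCNG2 stood higher at 2 h but did not pass the test. CDKN1B encodes p27, which inhibits cyclin-dependent kinases. At chr12:12870227-12870627 it had 81.0 and 61.6 CPM at 2 h, 61.8 and 72.4 CPM at 4 h, and 54.0 and 52.7 CPM in DMSO. The dTAG47 libraries lay above those of DMSO at both times. The log2 fold change was 0.42 at 2 h (SE 0.17, edgeR adjusted p = 0.211) and 0.31 at 4 h (SE 0.18, adjusted p = 0.483), and the 95% intervals ran from 0.08 to 0.77 and from -0.05 to 0.66. The 2 h value was 0.21 without 2 h library A and 0.61 without 2 h library B.

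CCNG2 encodes cyclin G2, an unconventional cyclin linked to cell cycle arrest. Its region at chr4:78078281-78078681 had 133 and 150 CPM at 2 h, 115 and 112 CPM at 4 h, and 98.8 and 126 CPM in DMSO. The 2 h libraries lay above those of DMSO, and the 4 h libraries lay between the DMSO libraries. Its log2 fold change was 0.34 at 2 h (SE 0.15, edgeR adjusted p = 0.252, 95% interval 0.05 to 0.63) and 0.02 at 4 h (SE 0.15, adjusted p = 0.975). The 2 h value was 0.16 without DMSO library A and 0.52 without DMSO library B (adjusted p = 0.769 and 0.0574). The sign at 4 h turned with total count scaling, with the top-3 share as a covariate and without DMSO library A.

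GADD45A, a growth arrest and DNA damage gene, had the highest signal of the 8 regions and stood on the other side of DMSO. At chr1:68151207-68151607 it had 249 and 274 CPM at 2 h, 225 and 229 CPM at 4 h, and 253 and 324 CPM in DMSO. The 4 h libraries were below those of DMSO, while those of 2 h overlapped them. The log2 fold change was -0.14 at 2 h (SE 0.15, edgeR adjusted p = 0.739) and -0.34 at 4 h (SE 0.15, adjusted p = 0.301, 95% interval -0.65 to -0.04). With the top-3 share as a covariate the 4 h value was -0.49 and passed the test (edgeR adjusted p = 0.0217). That share tended to be higher under dTAG47, so the fit cannot fully tell it apart from the treatment. With the column letter as a replicate block the 4 h value was -0.32 and passed (edgeR adjusted p = 0.0431). Without DMSO library A it was -0.52 (adjusted p = 0.130) and without DMSO library B -0.14 (adjusted p = 0.808), and over all 17 alternatives the adjusted p ranged from 0.0217 to 0.891.

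IRS2, the adaptor that carries the signal of the insulin receptor, did not pass the test at either time. The region at chr13:110439353-110439753 had 44.7 and 54.0 CPM at 2 h, 46.0 and 47.9 CPM at 4 h, and 50.8 and 45.8 CPM in DMSO. The 3 groups overlapped. The log2 fold change was 0.02 at 2 h (SE 0.19, edgeR adjusted p = 0.981) and -0.05 at 4 h (SE 0.19, adjusted p = 0.955). The 95% intervals, from -0.36 to 0.40 and from -0.44 to 0.34, reach a fold of 1.32 at the upper end at 2 h and of 0.736 at the lower end at 4 h. The spread between the 3 group means of IRS2 was smaller than that of 94.3% of all regions.

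SESN1 encodes a sestrin, a stress protein that restrains mTORC1, and had 2 regions whose starts lie 85.3 kb apart. RefSeq lists 3 starts of SESN1 in GRCh38, of which the second lies 85.3 kb and the third 85.9 kb from the first. The lower-coordinate region, at chr6:109330459-109330859, had 39.8 and 42.6 CPM at 2 h, 47.3 and 38.4 CPM at 4 h, and 45.4 and 46.5 CPM in DMSO. The 2 h libraries lay below those of DMSO and the 4 h libraries on either side of them.

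The higher-coordinate SESN1 region, at chr6:109415733-109416133, had 131 and 132 CPM at 2 h, 133 and 146 CPM at 4 h, and 153 and 118 CPM in DMSO. The libraries of each time lay between those of DMSO, and both 4 h libraries lay above both 2 h libraries. It held 76.7% and 75.7% of the reads of both SESN1 regions at 2 h, 73.8% and 79.2% at 4 h, and 77.2% and 71.7% in DMSO, with overlap between the groups. Log2 fold changes at 2 h and 4 h were -0.16 (SE 0.20) and -0.07 (SE 0.20) in the lower-coordinate region and -0.05 (SE 0.15) and 0.02 (SE 0.15) in the higher-coordinate one, with edgeR adjusted p from 0.795 to 0.976. The summed reads of both gave -0.07 at 2 h (SE 0.14, edgeR adjusted p = 0.886) and 0.00 at 4 h (SE 0.14, adjusted p = 0.9995).

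**Figure D2:**
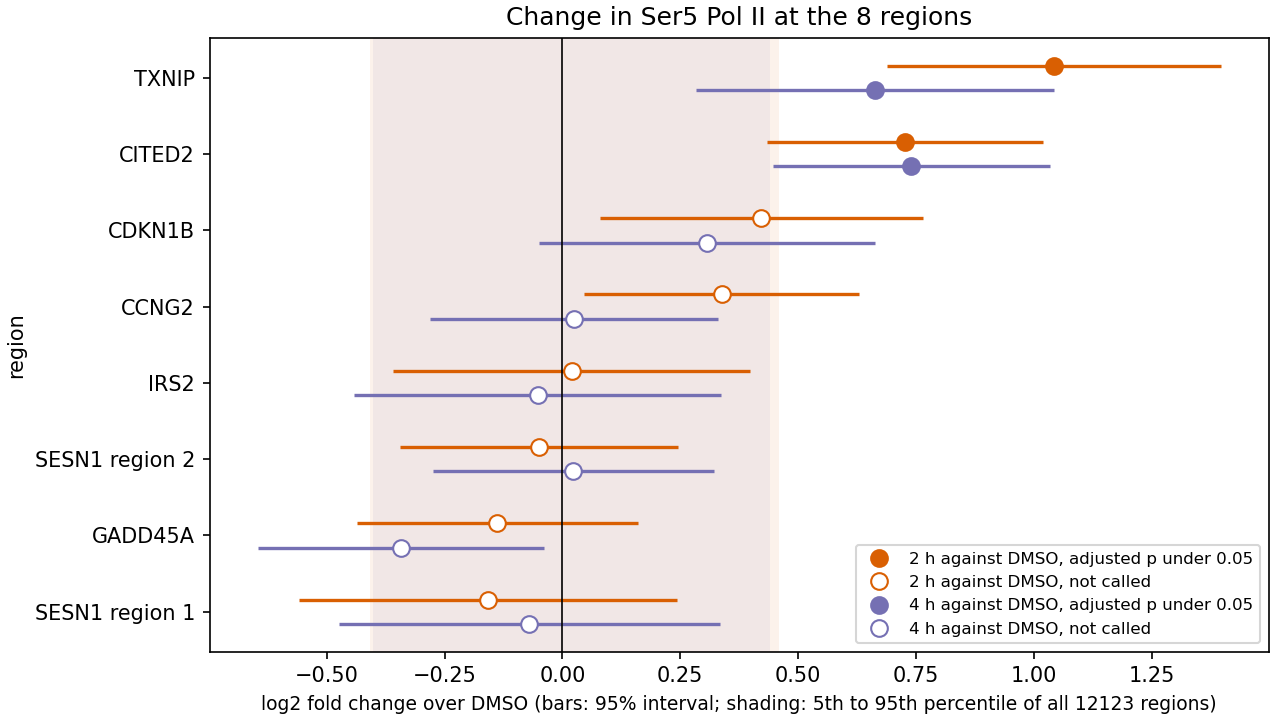
Log2 fold change over DMSO at 2 h (orange, upper of each pair) and 4 h (violet) for the 8 regions, with bars for the 95% interval, filled points for an edgeR adjusted p under 0.05 and shading for the 5th to 95th percentile of all 12123 regions. TXNIP and CITED2 lie beyond the shading at both times, and the other 6 regions lie within it.

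In edgeR with TMM scaling and no covariate, 0 of the 8 regions were called lower at 2 h, where 0.396% of the 12123 regions were, and 0 at 4 h, where 0.487% were. Before adjustment, edgeR put 4 of the 8 regions below the 0.05 level at 2 h, where 14.3% of all regions were, and 3 at 4 h, where 13.3% were. At 2 h both libraries lay above both DMSO libraries in 4 of the 8 regions, against 21.9% of all regions, and below them in 1, against 21.8%. At 4 h the counts were 3 above, against 20.2%, and 1 below, against 20.6%. The median log2 fold change of the 8 was 0.18 at 2 h, against -0.01 over all regions, and 0.02 at 4 h, against -0.01. The 2 comparisons share the DMSO libraries, so the calls at 4 h are not independent of those at 2 h.

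**Figure D3:**
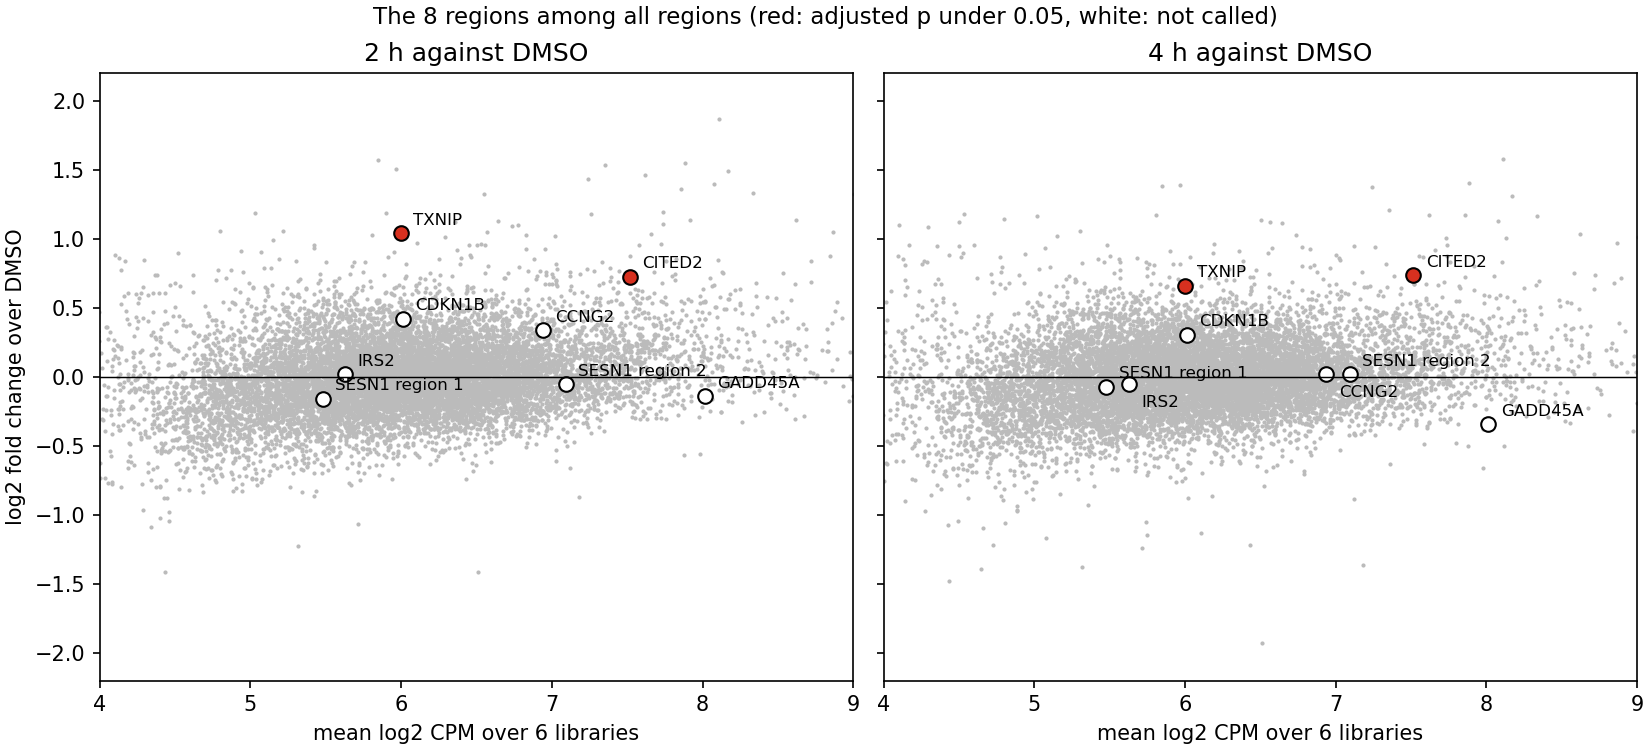
Log2 fold change over DMSO at 2 h (left) and 4 h (right) against the mean log2 CPM of the 6 libraries, with the 8 regions named, filled red where the adjusted p was under 0.05, and all other regions as grey points, of which 223 lie outside the level axis of 4 to 9. TXNIP, near the middle of the level range, and CITED2, near its upper end, stand above most regions of like level, while GADD45A has the highest level of the 8 and lies below 0.

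The direct comparison of 4 h with 2 h called 0 of the 8 regions, where 0% of all regions were called in edgeR (396 of 12123 had an unadjusted p under 0.05). TXNIP averaged 68.0 CPM at 4 h and 86.1 CPM at 2 h, a log2 difference of -0.38 (SE 0.17, unadjusted p = 0.0317, edgeR adjusted p = 0.998). It was -0.17 without 4 h library A and -0.54 without 4 h library B. For CCNG2 the means were 113 CPM at 4 h and 141 CPM at 2 h, a log2 difference of -0.31 (SE 0.15, unadjusted p = 0.0430, edgeR adjusted p = 0.998). These were the 2 of the 8 regions with an unadjusted p under 0.05, where 3.27% of all regions had one. CITED2 averaged 216 CPM at 4 h and 215 CPM at 2 h, with a log2 difference of 0.01 and a 95% interval from -0.27 to 0.30. DESeq2 and limma-voom also called 0 of the 8.

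The nearest region on each side of a window lay within 100 kb in 4 cases, beside 3 of the genes. The region 54.3 kb below the TXNIP window, at chr1:145382713-145383113, had 213 CPM at 2 h, 177 CPM at 4 h and 94.5 CPM in DMSO, with log2 fold changes of 1.18 (SE 0.16, edgeR adjusted p = 6.45e-07) and 0.94 (SE 0.16, adjusted p = 0.000142). It rose as TXNIP did, and the difference between them was not tested. On the other side, 33.4 kb above the TXNIP window, the region at chr1:145477147-145477547 had log2 fold changes of -0.04 (SE 0.15) and -0.16 (SE 0.15) and was not called. The region 1.33 kb above the CDKN1B window had log2 fold changes of 0.06 at 2 h and 0.27 at 4 h, and that 80.2 kb below the CCNG2 window 0.11 and -0.03, and neither was called. These neighbours are given by position only, since no annotation of hg19 was used here.

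Profiles over the 6 libraries were also compared. The regions most like TXNIP by Pearson correlation of log2 CPM lay at chr12:46766117-46766517 (r = 0.993), chr2:10260537-10260937 (r = 0.991) and chr14:50052834-50053234 (r = 0.988). Those most like CITED2 lay at chr8:66546141-66546541 (r = 0.999), chr7:150944965-150945365 (r = 0.999) and chr17:43225717-43226117 (r = 0.994), and those most like IRS2 at chr19:10397583-10397983 (r = 0.996), chr1:23279907-23280307 (r = 0.990) and chr15:42867745-42868145 (r = 0.982). Of the 12123 regions, 276 had an r over 0.9 with TXNIP, 345 with CITED2 and 36 with IRS2. The regions named were picked as the highest of all over only 6 libraries, so their r values are high by selection. The correlation takes no account of the size of a change. The regions named for TXNIP had log2 fold changes of 0.41 to 0.45 at 2 h and 0.24 to 0.30 at 4 h. Those named for CITED2 had 0.31 to 0.69 and 0.32 to 0.64, and both sets lay below the gene itself. All the points share their libraries, and the r values only describe these 6. Among the 8 regions themselves, TXNIP had an r of 0.80 with CITED2, 0.83 with CDKN1B and 0.71 with CCNG2, against -0.71 with the lower-coordinate SESN1 region, -0.24 with GADD45A, -0.23 with the higher-coordinate SESN1 region and -0.10 with IRS2.

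**Figure D4:**
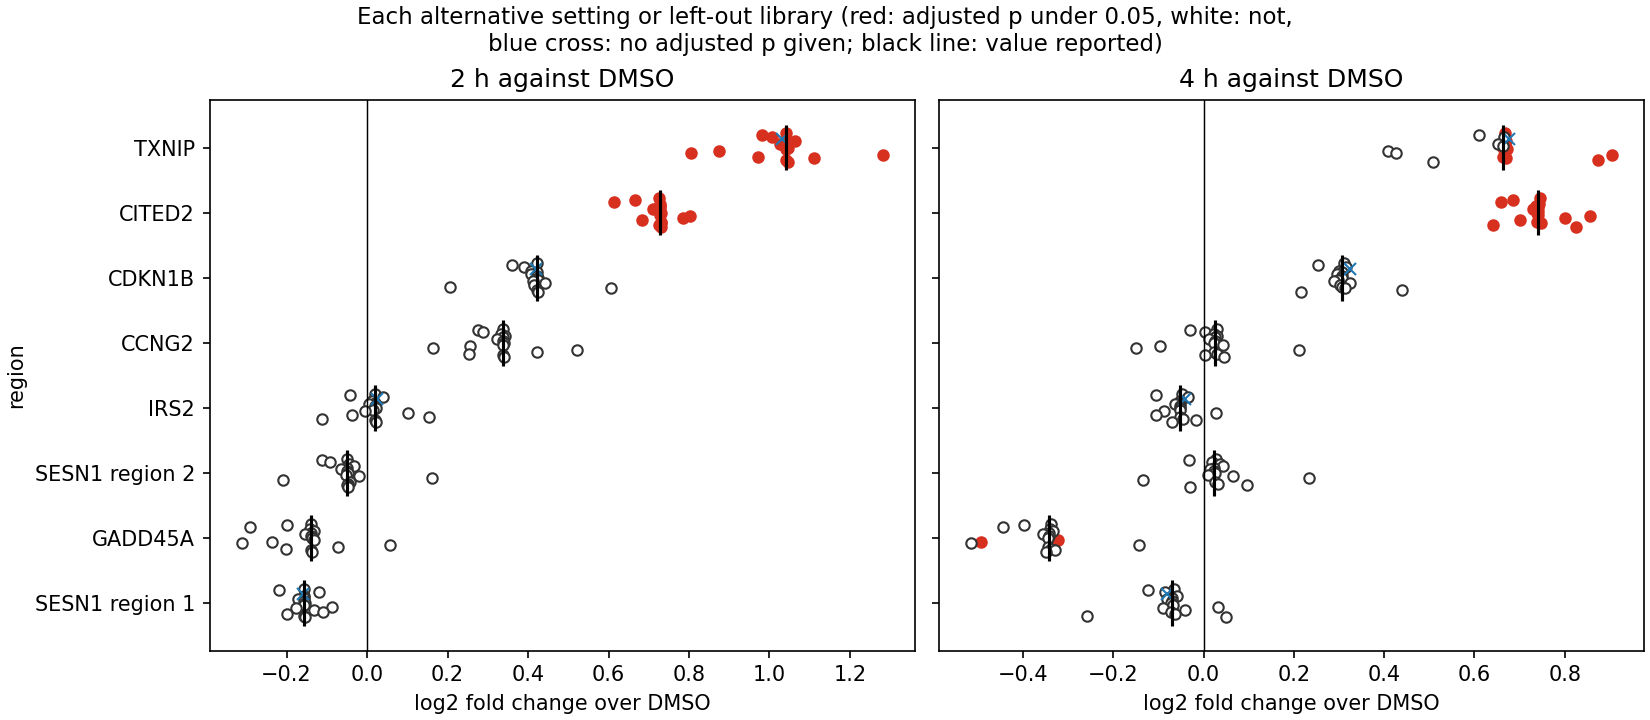
Log2 fold change over DMSO at 2 h (left) and 4 h (right) in each of 17 alternative settings or left-out libraries, in red where the adjusted p was under 0.05, white where not, with a blue cross where DESeq2 gave no adjusted p, and a black line for the value reported. CITED2 is red throughout, TXNIP is red at 2 h wherever an adjusted p was given and mixed at 4 h, and the others are white except GADD45A, which is red in 2 alternatives at 4 h.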

How the data were processed

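Ser5 Pol II ChIP-seq was analysed in 6 libraries, 2 each of 2 h dTAG47, 4 h dTAG47 and DMSO. The authors deposited raw counts for 12123 regions. The submitters' processing notes name the builds hg19 and dm3 and the tools Bowtie2, DESeq2, DiffBind, MACS2 and Trimmomatic 0.32. What each was used for, and the rules for calling regions and counting reads, were not given in the sources used here. Columns carry letters, not the labels' replicate numbers, and were tied to groups only.

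Members were the regions overlapping the 8 windows. All of them are named, with the nearest region on either side within 100 kb and, for TXNIP, IRS2 and any gene with a called region, the 3 regions most alike. Members and lists were chosen with earlier results of these data known. The lists of other FOXO and PI3K-AKT genes and of cell type markers need an hg19 annotation and were not run.

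The test was the edgeR quasi-likelihood F-test (edgeR 4.0.16 under R 4.3.3, TMM, filterByExpr, which removed 0 regions, all 6 libraries in 1 fit, Benjamini-Hochberg adjustment over all regions, threshold 0.05), which was tested on simulated data. SE is the log2 fold change divided by the square root of F. Libraries of a group differed by more than sampling noise (chi-square per degree of freedom of 1.50 at 2 h, 2.26 at 4 h and 2.33 in DMSO). DESeq2 1.42.0, limma 3.58.1, other scalings, filters and fits and leaving out each library were alternatives. Reads without molecular identifiers are not independent molecules.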

Additional observations from a re-analysis of the deposited data

How the results depend on the processing

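The calls on CITED2 at both times and on TXNIP at 2 h kept direction and side of the threshold in every alternative that gave an adjusted p. TXNIP at 2 h had none in DESeq2 (DESeq2 unadjusted p = 0.000183), which is why DESeq2 counted 1 of the 8 regions there, CITED2. CDKN1B, IRS2 and the lower-coordinate SESN1 region also had none against DMSO. With TXNIP they had the lowest mean counts of the 8, from 62.7 to 90.2. At 4 h DESeq2 also called CITED2 alone, and gave TXNIP an unadjusted p of 0.0164 and no adjusted p. At 4 h, 1 of the 8 regions was also called with total count scaling, cyclic loess with limma-trend, a minimum mean of 50 counts and a robust dispersion, CITED2 in each. With 1 library left out, 1 to 2 were called at 4 h and 2 at 2 h. Summing the reads of a gene gave the same counts of calls, 2 at 2 h and 2 at 4 h.

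Over the whole table, 317 regions were called at 2 h and 243 at 4 h. At 2 h there were 156 with cyclic loess and limma-trend, 99 with DESeq2, 859 with the replicate block and 499 with the share of the 3 highest regions as covariate, and from 147 to 445 with 1 library left out (147 without 2 h library B, 155 without 2 h library A, 200 without DMSO library A). At 4 h there were 58 with DESeq2, 743 with the replicate block, and 120 to 369 with 1 library left out (120 without 4 h library B, 139 without DMSO library A, 369 without DMSO library B). Rises made up 166 of 253 calls at 2 h and 120 of 203 at 4 h with total count scaling, against 269 of 317 and 184 of 243. For 4 h against 2 h, 0 to 1 regions were called with 1 library left out.

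The block used the column letter. Differences between A and B correlated between groups with r of 0.22, 0.28 and 0.16 over regions, but nothing in the labels ties the letters, so they are not taken to pair the libraries. With the block, GADD45A at 4 h passed the test (-0.32, adjusted p = 0.0431), and it changed no other call among the 8 regions.

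Signs turned only in values that were not called. With total count scaling these were IRS2 at 2 h (-0.042) and, at 4 h, the higher-coordinate SESN1 region (-0.032) and CCNG2 (-0.029). With the covariate they were IRS2 at 2 h (-0.0057) and, at 4 h, the lower-coordinate SESN1 region (0.031) and CCNG2 (-0.10). With 1 library left out, values at 2 h ran from -0.11 to 0.15 for IRS2, -0.21 to 0.16 for the higher-coordinate SESN1 region and -0.31 to 0.057 for GADD45A. At 4 h they ran from -0.11 to 0.028 for IRS2, -0.15 to 0.21 for CCNG2, -0.26 to 0.050 for the lower-coordinate and -0.13 to 0.23 for the higher-coordinate SESN1 region. For 4 h against 2 h they ran from -0.29 to 0.10 for CDKN1B, -0.21 to 0.067 for IRS2, -0.10 to 0.20 for the lower-coordinate SESN1 region and -0.085 to 0.095 for CITED2. The cause of these moves was not tested. The filter removed 0 regions, so its omission tested nothing.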
